A study of Mus musculus with 12 samples.

Results

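The effect of milk rich in palmitic acid (PA milk) on ILC3s of the intraepithelial layer (IEL) of the small intestine was described from 6 of the 12 RNA libraries of the series, 3 of PA milk mice and 3 of normal diet (ND) mice. Of the 23284 genes in the deposited table, 10419 reached an FPKM (mapped fragments scaled to transcript length and to the size of the library) of at least 1 in at least 3 of these 6 libraries, and these were the genes tested. The mice were of the hairless strain HR-1, and their age is given as 18 weeks. PA milk mice were pups of ND mothers that were handed after birth to foster mothers eating chow with added palmitic acid. ND mice had mothers on normal chow, and both groups ate normal chow once weaned. The groups thus differ in the milk they drank and not in their diet when the cells were sorted. The paper describes no swap of pups for ND, so milk and fostering cannot be told apart. The labels do not say whether a library came from 1 mouse or from pooled mice, nor the sex of the mice. The sort kept lineage-negative cells that stained for Thy1.2, CD25 and Nrp1, and for CD4 or CD45 depending on which description of the gate is followed. The libraries are called PA 1 to PA 3 and ND 1 to ND 3 after the replicate numbers of the labels.

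ILC3s are innate lymphocytes of mucosal tissues that carry no antigen receptor. They depend on the transcriptional regulator Id2 and on interleukin-7, respond to IL-23 and IL-1 from myeloid cells, and release IL-22 and lymphotoxins. IL-22 acts on the epithelium, where it induces the antimicrobial lectins Reg3b and Reg3g. The intraepithelial layer from which these cells were taken also holds T cells, mast cells and the epithelial cells themselves.

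Library PA 2, and to a lesser extent ND 2, stood apart from the others before any comparison was made. PA 2 reached 1 FPKM for 4270 of the tested genes and ND 2 for 7539, whereas the other 4 libraries reached it for 9207 to 10069. The reads recovered from the steps of low FPKM values (in M, reads divided by a factor of 1e6) were 14.6 M in PA 2, 14.1 M in ND 2 and 8.75 to 13.9 M in the other 4, so that the libraries with the fewest detected genes had the most reads. The tested genes detected per library were 7614 ± 2897 (SD, n = 3) for PA milk against 9215 ± 1451 (SD, n = 3) for ND, and the groups overlapped (two-sided exact permutation test, p = 0.5, where the smallest possible is 0.1). In PA 2, 2985 genes were under 1 FPKM that reached it in all 5 other libraries. Across tested genes, which are not independent of each other, Spearman's correlation of PA 2 with the other IEL libraries was 0.46 to 0.5, and that of the other pairs 0.6 to 0.89.

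PA 2 also went against its label as an ILC3 library. Of 10 ILC3 markers, 9 were under 1 FPKM in PA 2 and 6 in ND 2, against 0 or 1 in each of the other 4 libraries. Il7r, the interleukin-7 receptor alpha chain, was 167, 0.0242 and 124 FPKM in PA 1, PA 2 and PA 3 and 28.5, 49.3 and 39.5 in ND 1, ND 2 and ND 3. PA 2 was thus the 1 library without it. Id2 was the ILC3 marker that PA 2 retained, at 326 FPKM. The summed level of the 10 markers was 2112, 327 and 1214 FPKM in PA milk and 313, 293 and 615 in ND. In PA 2, 4 of the 5 genes for the proteins on which the cells were sorted were under 1 FPKM, and the fifth, Cd4, was at 26.1. The 5 myeloid markers summed to 658, 3144 and 706 FPKM in PA milk and 3095, 2502 and 247 in ND, so PA 2 was close to ND 1. One of them, Lyz2, was higher in ND 1 and ND 2 than in PA 2, and at 2922 FPKM it made up most of the ND 1 sum. The others, Csf1r, Cd68, Itgax and S100a8, were highest in PA 2 of all 6 libraries, at 67.1, 371, 77.5 and 904 FPKM. The macrophage genes C1qb and C1qc, which are not among these markers, were at 1173 and 1636 FPKM in PA 2, above all 5 other libraries, which held 34.5 to 689. The log2 fold change or list median without PA 2 is therefore given beside that of all 6 libraries.

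**Figure D1:**
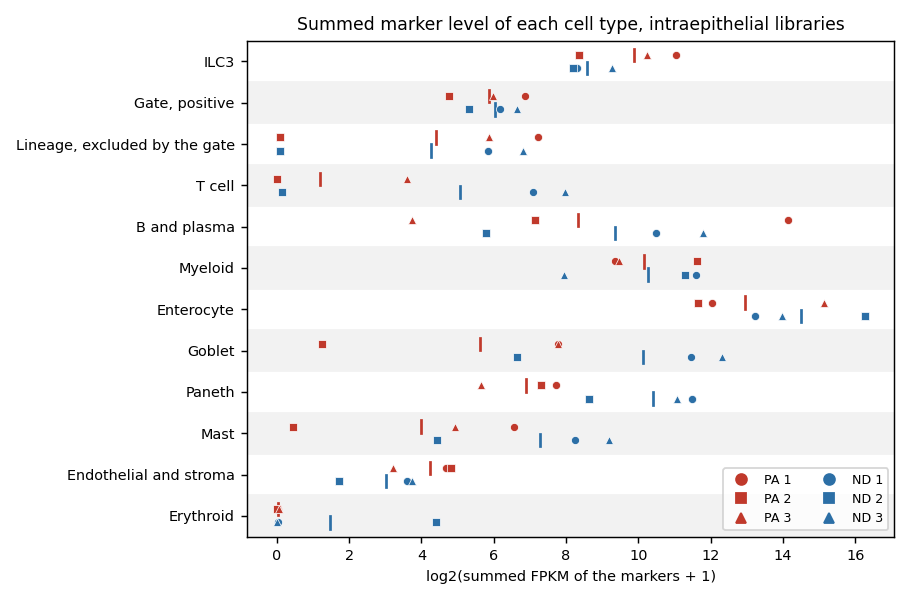
Summed level of the markers of each cell type, as log2(summed FPKM + 1), in the 3 PA milk libraries (red) and 3 ND libraries (blue) of the intraepithelial layer. Circles, squares and triangles are replicates 1, 2 and 3, and vertical bars are group means. PA 1 and PA 3 had the highest ILC3 sums, 2112 and 1214 FPKM, and the goblet and Paneth sums of all 3 PA libraries lay below those of ND 1 and ND 3.

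No gene passed the test of PA milk against ND. With limma on log2(FPKM + 1) and Benjamini-Hochberg adjustment, 0 of 10419 genes (0%) had an adjusted p under 0.05, and the smallest adjusted p was 0.865. At an unadjusted p under 0.05 limma gave 89 genes higher in PA milk (0.854%) and 304 lower (2.92%). The median standard error of a log2 fold change was 1.25. What follows therefore describes levels in the 6 libraries, and every tested gene had an adjusted p of 0.865 or more in that fit. Genes named because their groups did not overlap were chosen by the values that the fit uses, so their log2 fold changes are descriptions. They are given with a standard error and no p, except for Id2 and Reg3b, which were also named for their high level. Both of these genes were without overlap too, and the high level of Reg3b lay in ND. Their p-values are therefore descriptions as well.

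The libraries of the 2 groups did not overlap for 918 genes. In 360 of them (3.46% of the tested genes) every PA library lay above every ND library, and in 558 (5.36%) every PA library lay below every ND library, with at least 1 FPKM in each library of the higher group. PA 2 was under 1 FPKM for 494 of the 558 lower genes and was the highest of all 6 for 293 of the 360 higher genes. Among the 3317 genes at 1 FPKM or more in all 6 libraries, 240 did not overlap and were higher in PA milk (7.24%) and 63 were lower (1.90%). Without PA 2 the counts over all tested genes were 1133 higher (10.9%) and 797 lower (7.65%), and without both replicates 2 they were 1820 (17.5%) and 1562 (15.0%). Scaling the libraries to the same upper quartile moved the share of higher genes among those that did not overlap from 39.2% to 26.8%. The median log2 fold change of all tested genes was -0.35, with 38.5% of genes higher, and it was 0.04 without PA 2.

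**Figure D2:**
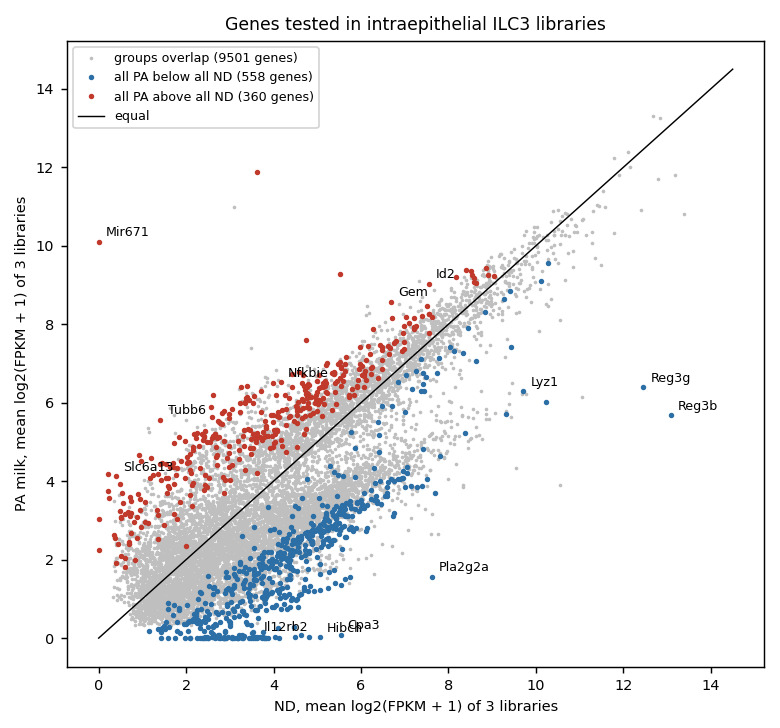
Mean log2(FPKM + 1) of the 3 PA milk libraries (y axis) against that of the 3 ND libraries (x axis) for each of the 10419 tested genes. Red genes had every PA library above every ND library (360), blue genes the opposite (558), and grey genes overlapped. The lower edge of blue points at 0 on the y axis holds genes listed at or near 0 in PA milk, and Reg3b and Reg3g lie farthest to the right below the line of equality.

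With PA 2 left out, most of the regulators and receptors by which ILC3s are recognised were higher in PA milk than in any ND library. This order held for 15 of the 26 tested genes of the list of ILC3 identity and lineage factors once PA 2 was left out, beside 10.9% of all tested genes, and 4 of the 26 were lower, beside 7.65%. With PA 2 included, 2 were higher and 4 lower. The median log2 fold change of the list was 0.12 over all 6 libraries, 1.45 without PA 2 and 0.78 without both replicates 2. PA 2 was set apart in part by its low ILC3 markers, so values of ILC3 genes without it were partly fixed by that choice. ND 2, with 6 of the 10 markers under 1 FPKM, was kept in that count. Without both replicates 2, 15 of the 26 were higher and 5 lower, beside 17.5% and 15.0% of tested genes.

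Id2 was 750, 326 and 586 FPKM in PA 1, PA 2 and PA 3 and 110, 217 and 273 in ND 1, ND 2 and ND 3. All PA libraries lay above all ND libraries, with a log2 fold change of 1.48 (standard error 0.50, unadjusted p = 0.00995 from limma) and 1.82 without PA 2. The common cytokine receptor gamma chain Il2rg, shared by the receptors for IL-2, IL-7 and IL-15, was 340, 306 and 217 FPKM in PA milk and 136, 133 and 179 in ND. It too did not overlap, with a smaller log2 fold change of 0.93 (standard error 0.67) and 0.87 without PA 2.

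For the other members that stood higher without PA 2, the level in PA 2 was near 0. The IL-23 receptor gene Il23r was 34.7, 0 and 13.7 FPKM in PA milk and 1.47, 0 and 6.97 in ND. Kit, the receptor for stem cell factor, was 93.8, 0.0586 and 29.6 against 11.8, 0.0314 and 23.3. Tcf7, a transcription factor of ILC precursors, was 94.8, 0 and 61.4 against 10.6, 0 and 20.5. Both replicates 2 lacked these genes, and among the remaining libraries PA milk lay above ND in each case. Rora, Gata3, Ets1, Maf, Il1r1, Il18r1, Il2rb and Icos followed the same order in PA 1 and PA 3, Gata3 and Il2rb by a narrow margin (6.04 against 5.94 FPKM and 5.34 against 5.30 FPKM). So did the chemokine receptor genes Ccr6, Cxcr5 and Cxcr6. Of 13 tested chemokine receptor genes, 4 stood higher without PA 2 and 1 lower, beside 10.9% and 7.65% of tested genes. With PA 2 included, 0 were free of overlap in either direction, beside 3.46% and 5.36%. The median of that list was 0.28, and it was 0.14 without PA 2 and -0.10 without both replicates 2.

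**Figure D3:**
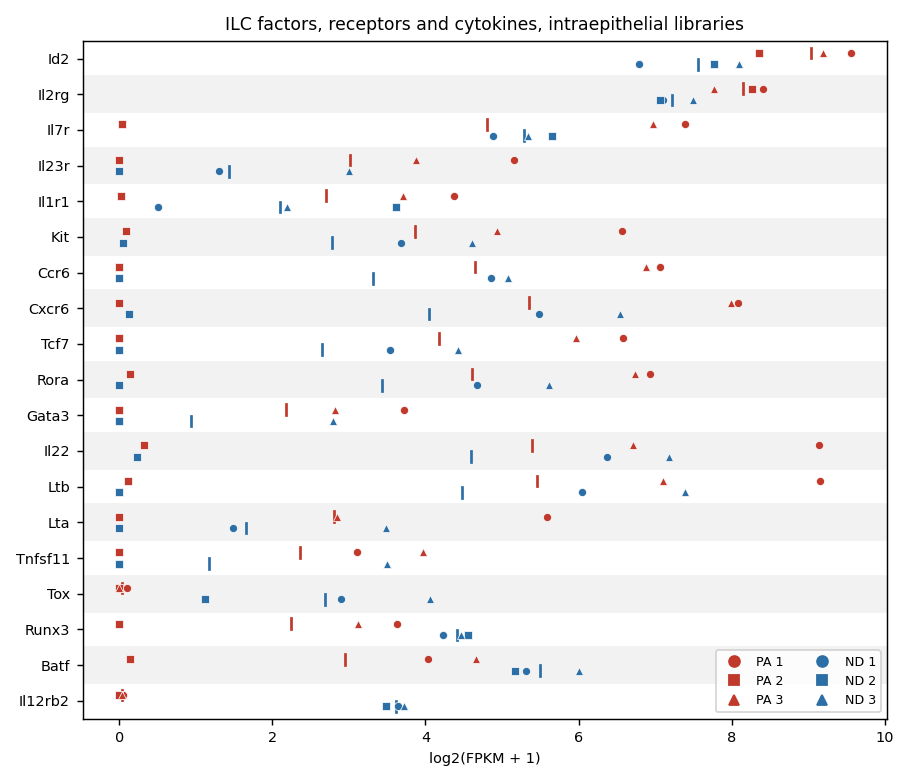
Level of ILC factors, receptors and cytokines as log2(FPKM + 1) in each intraepithelial library, PA milk in red and ND in blue, with circles, squares and triangles for replicates 1, 2 and 3 and vertical bars for group means. PA 2 (red squares) is near 0 for most genes other than Id2 and Il2rg, while PA 1 and PA 3 lie to the right of the ND libraries for Il7r, Il23r, Kit, Ccr6, Cxcr6, Tcf7 and Rora.

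The effector cytokine genes overlapped between the groups. All 7 tested genes of this list had a positive log2 fold change, with a median of 0.80 that was 2.37 without PA 2. Of the 7, 0 were free of overlap, beside 3.46% of tested genes, and without PA 2 the count was 1, beside 10.9%. Il22 was 565, 0.248 and 104 FPKM in PA milk and 81.5, 0.177 and 144 in ND, so that PA 1 was high and PA 3 lay between ND 1 and ND 3. Ltb, a subunit of lymphotoxin, followed with 569, 0.082 and 137 against 64.7, 0 and 166. Tnfsf11, which encodes RANKL, was 7.62, 0 and 14.7 against 0, 0 and 10.3.

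The 4 lower members of the list, Il12rb2, Tox, Runx3 and Batf, stood lower in every PA library than in any ND library. Il12rb2, the signalling chain of the IL-12 receptor, was 0.0373, 0 and 0.0288 FPKM in PA milk and 11.5, 10.2 and 12.2 in ND. Its levels were close to each other within ND (11.3 ± 0.989, SD, n = 3), and none of the PA libraries reached 1 FPKM. The log2 fold change was -3.59 (standard error 1.01) and -3.57 without PA 2. Tox, a nuclear factor of lymphocyte development, was 0.0773, 0 and 0 FPKM in PA milk and 6.43, 1.18 and 15.6 in ND (log2 fold change -2.65, standard error 1.16, and -2.64 without PA 2). Il12rb2 and Tox reached 1 FPKM in ND libraries only and so entered the test through ND. Their difference and its size without PA 2 were largely fixed by that choice. Runx3 was 11.4, 0 and 7.67 against 17.7, 22.5 and 21.0 FPKM, and Batf, an AP-1 family factor, was 15.3, 0.105 and 24.3 against 38.8, 35.0 and 63.0. Here PA 1 and PA 3 were below ND by a smaller margin, and the log2 fold changes of -2.16 for Runx3 and -2.55 for Batf became -1.04 and -1.15 without PA 2. The interferon-responsive genes Irf1 and Iigp1 also lay lower in every PA library. Irf1 was 260, 106 and 84.8 FPKM in PA milk and 318, 608 and 316 in ND (log2 fold change -1.56, standard error 0.81, and -1.40 without PA 2). Of 14 tested interferon gamma response genes, 13 had a negative log2 fold change, where 38.5% of all tested genes were higher, with a median of -1.03 that was -0.31 without PA 2, and 2 were lower without overlap, beside 5.36% of tested genes.

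Markers of T cells, which the gate should leave out, were set beside these genes. Cd3e was listed at 0 in all 3 PA libraries and at 23.5, 0 and 87.5 FPKM in ND, and Cd3g was 0, 0 and 11.1 FPKM in the PA libraries and 102, 0.0957 and 118 in those of ND. The 4 T cell markers in the table summed to 0, 0 and 11.1 FPKM in PA milk and 136, 0.0957 and 248 in ND, and all 4 were under 1 FPKM in PA 1, PA 2 and ND 2. The 6 lineage markers of the gate in the table did not follow this order. They summed to 149, 0.0602 and 57.4 FPKM with PA milk and 56.3, 0.0645 and 112 with ND, with PA 1 the highest, and most of this was Cd8b1 (129, 0.0602 and 37.0 against 41.9, 0.0645 and 101 FPKM). Lck, a kinase of T cell receptor signalling, was 38.2, 0.039 and 12.1 against 52.7, 18.9 and 153 FPKM, so ND 2 held it. Of 10 tested genes of the T cell receptor complex and co-receptors, 2 were higher and 8 lower, with a median of -0.83 (-0.31 without PA 2), and 0 were free of overlap, beside 5.36% of tested genes. The part of T cell RNA in the levels of Il12rb2, Tox, Runx3 and Batf was not tested. The chemokine gene Ccl5, abundant in T cells and NK cells, was 15.5, 0 and 1.47 against 490, 0 and 316 FPKM. In RNA of a bulk sort, fewer cells of a type and less RNA per cell cannot be told apart.

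Several mast cell genes were near 0 in PA milk and others were not. Cpa3, the carboxypeptidase of mast cell granules, was 0.0821, 0.117 and 0 FPKM in PA milk and 53.8, 20.5 and 82.9 in ND, with a log2 fold change of -5.44 (standard error 1.34) and of -5.47 without PA 2. Mcpt1, a chymase of mucosal mast cells, was 0, 0.177 and 0 against 235, 0 and 472, and Fcer1a, the alpha chain of the high-affinity IgE receptor, was listed at 0 in all PA libraries and at 43.9, 0 and 78.4 in ND. Neither entered the test, because each reached 1 FPKM in only 2 libraries. Gata2, a transcription factor of mast cells and basophils, was 14.6, 0.12 and 8.79 FPKM against 14.0, 16.7 and 47.4 and overlapped, and Kit, which mast cells also express, was higher in PA 1 and PA 3 than in ND. Of the 3 tested genes of the mast cell and basophil list, all had a negative log2 fold change (median -2.08, -0.92 without PA 2) and 1, Cpa3, was free of overlap, beside 5.36% of tested genes.

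The antimicrobial genes of the epithelium gave the differences with the highest levels behind them. Reg3b, a C-type lectin that binds bacteria, was 28.0, 2.25 and 1431 FPKM in PA 1, PA 2 and PA 3 and 22959, 2728 and 10526 in ND 1, ND 2 and ND 3. The highest PA library lay below the lowest ND library, with PA 3 closest. Reg3b had the smallest unadjusted p of all tested genes (0.000372 from limma), with a log2 fold change of -7.41 (standard error 1.63) and -5.42 without PA 2. When PA 3, the PA library closest to ND, was left out, the log2 fold change of Reg3b was -9.81. Reg3b was then the 1 gene that passed (adjusted p = 0.0126 from limma), in a fit that kept PA 2. When PA 2 was left out instead, 0 genes passed. Reg3g was 327, 2.44 and 530 FPKM in PA milk and 12233, 2645 and 5490 in ND (log2 fold change -6.06, standard error 1.95, and -3.75 without PA 2). Reg3a was 0, 0 and 252 against 243, 132 and 308, so that PA 3 was within the range of ND. Reg1, of the same family, was 23.7, 137 and 4879 FPKM in PA milk and 613, 54.1 and 398 in ND, with PA 3 the highest of all. The lectins are similar in sequence, and reads could be split between near copies. Of 9 tested genes of the list of Reg lectins and IL-22 responses of the epithelium, 2 were higher and 7 lower. The median of this list was -1.40, and it was 0.22 without PA 2 and -1.32 without both replicates 2. Reg3b and Reg3g were the 2 genes lower without overlap and 0 were higher, beside 5.36% and 3.46% of tested genes.

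Reg3b and Reg3g lie in 1 gene cluster on chromosome 6 (GRCm38, 78370657 to 78373466 on the plus strand and 78466269 to 78468872 on the minus strand), and their promoters are shown because both genes stood lower together. Over the 300 bases from 250 before to 50 after the RefSeq start, 207 of 304 aligned positions were identical (68.1%). Capitals mark matches on either strand to TTCNNNGAA, the palindromic core of elements bound by STAT factors, and to TATAAA. The first was in the Reg3b window, 129 to 121 bases before the start, and not in that of Reg3g. It was in 8.3% of 32851 promoter windows of the same length. TATAAA was in both windows and in 13.6% of all. A match is a run of letters and was not tested as a binding site. Coordinates and sequences are those of RefSeq on GRCm38.p6, written 5′ to 3′ along the gene.
Reg3b, chr6:78370635-78370934, plus strand: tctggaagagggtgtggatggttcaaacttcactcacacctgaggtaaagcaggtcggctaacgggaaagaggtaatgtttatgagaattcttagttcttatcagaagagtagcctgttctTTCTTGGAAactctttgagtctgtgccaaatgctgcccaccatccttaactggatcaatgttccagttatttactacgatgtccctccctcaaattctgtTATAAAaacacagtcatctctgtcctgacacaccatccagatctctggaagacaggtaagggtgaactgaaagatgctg
Reg3g, chr6:78468825-78469124, minus strand: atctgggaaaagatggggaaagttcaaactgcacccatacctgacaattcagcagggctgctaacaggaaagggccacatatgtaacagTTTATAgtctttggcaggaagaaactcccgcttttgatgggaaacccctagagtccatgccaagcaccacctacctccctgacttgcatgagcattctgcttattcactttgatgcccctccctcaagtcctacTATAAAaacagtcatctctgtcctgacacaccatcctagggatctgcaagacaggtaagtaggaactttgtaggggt

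Paneth cell products stood lower with the Reg3 lectins. All 6 tested genes of the Paneth list had a negative log2 fold change, with a median of -3.50 (-3.90 without PA 2), and 3 did not overlap, beside 5.36% of tested genes. Lyz1, the Paneth cell lysozyme, was 61.4, 157 and 47.9 FPKM in PA milk and 1707, 396 and 860 in ND (log2 fold change -3.41, standard error 0.86, and -3.92 without PA 2). Reads of Lyz1 can be shared with its near copy Lyz2, which was 334, 1725 and 405 FPKM in PA milk and 2922, 2060 and 82.3 in ND and overlapped. Pla2g2a, a secreted phospholipase that kills bacteria and is annotated as a polymorphic pseudogene, was 21.6, 0 and 0.139 against 534, 22.8 and 596 FPKM (log2 fold change -6.06, standard error 1.39, and -5.27 without PA 2). Itln1, a lectin for microbial sugars, was 7.36, 12.7 and 5.42 against 200, 15.6 and 384. For Itln1 and Pla2g2a, ND 2 lay close to the highest PA library (15.6 against 12.7 FPKM and 22.8 against 21.6 FPKM). The goblet list gave 8 of 8 genes with a negative log2 fold change and a median of -2.81 (-1.39 without PA 2), with 1 free of overlap, beside 5.36% of tested genes. Zg16, which binds bacteria in mucus, was 47.8, 0.51 and 113 FPKM in PA milk and 1721, 82.5 and 2870 in ND, so PA 3 was above ND 2. With both replicates 2 left out, all 8 goblet genes and all 6 Paneth genes were lower in PA milk than in ND, beside 15.0% of tested genes. With only PA 2 left out, 2 of the 8 goblet genes and 3 of the 6 Paneth genes were, beside 7.65%.

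Absorptive enterocyte genes overlapped between the groups. Fabp2, the intestinal fatty acid binding protein, was 902, 385 and 16303 FPKM in PA milk and 4726, 35069 and 7504 in ND. PA 3 was thus above ND 1 and ND 3. Of 21 tested genes of fat absorption and lipoproteins, 19 had a negative log2 fold change (median -1.38, -0.73 without PA 2 and -0.26 without both replicates 2) and 0 were free of overlap, beside 5.36% of tested genes. The share of all FPKM held by this list was 0.985%, 0.772% and 6.48% in PA milk against 2.64%, 11.6% and 3.61% in ND. That of the Paneth list was 0.0411%, 0.0225% and 0.00645% in PA milk against 0.526%, 0.0492% and 0.471% in ND. PA 3, with the highest share of enterocyte fat genes in its group, had the lowest share of Paneth genes. The part of epithelial RNA in the level of the antimicrobial genes was not tested.

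Genes of the brush border and of cell junctions had lower medians that depended on PA 2. Of 24 brush border genes, 21 had a negative log2 fold change, with a median of -1.67 that was -0.72 without PA 2 and -0.19 without both replicates 2. Mep1a, a meprin protease of the brush border, was 0, 0.241 and 9.24 FPKM in PA milk and 18.0, 11 and 11.7 in ND, and did not overlap (log2 fold change -2.61, standard error 0.88, and -2.15 without PA 2). Of 23 junction and keratin genes, 22 were negative, with medians of -1.71 and, without PA 2, -0.50. Cldn4, a claudin of tight junctions, was listed at 0 in all PA libraries and was 9.32, 64.4 and 3.32 FPKM in ND. The plasma cell gene Igj was high in PA 1, ND 1 and ND 3 and overlapped, at 17871, 1.19 and 1.42 FPKM in PA milk and 1395, 1.40 and 3468 in ND.

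**Figure D4:**
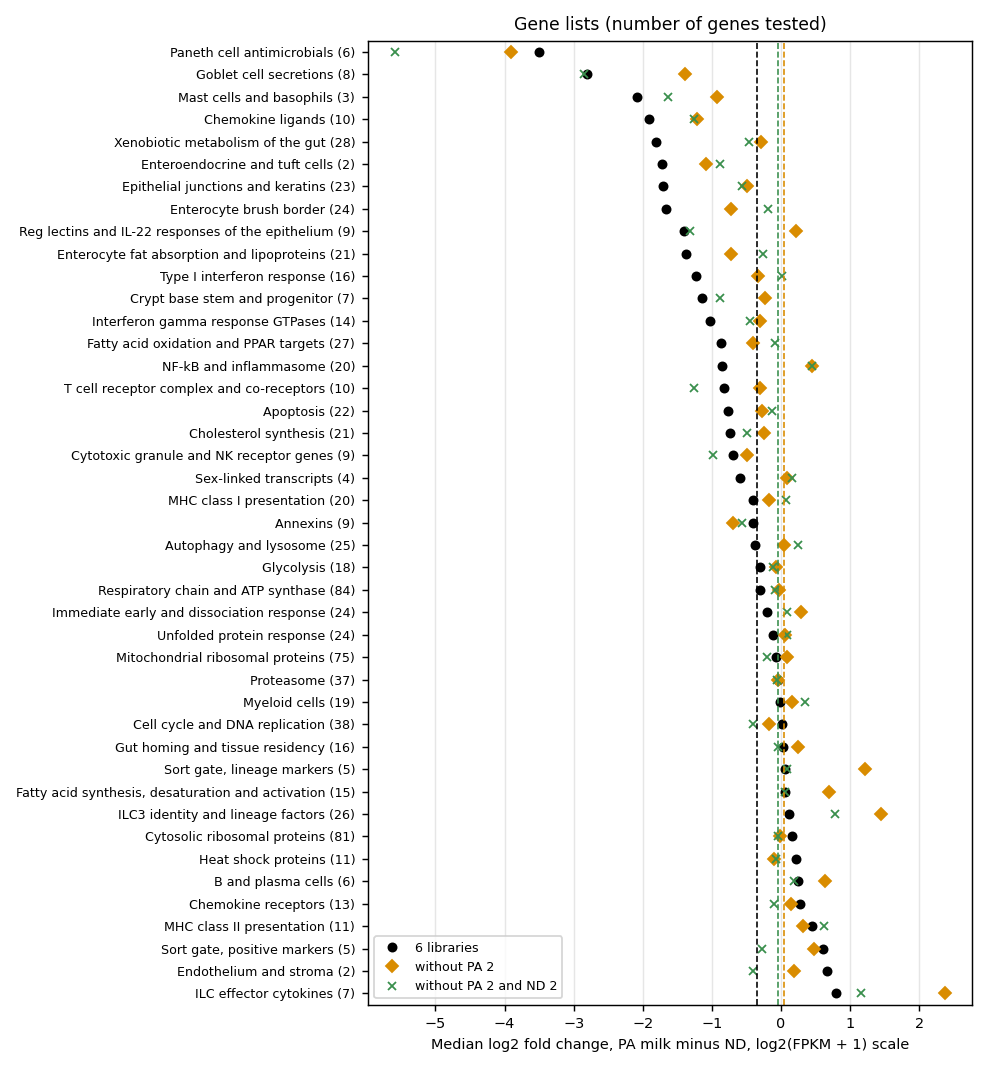
Median log2 fold change (PA milk minus ND, on the log2(FPKM + 1) scale) of 43 gene lists, with the number of tested genes in brackets. Black circles are all 6 libraries, orange diamonds leave out PA 2, green crosses leave out PA 2 and ND 2, and dashed lines are the medians of all tested genes (-0.35, 0.04 and -0.05). Paneth genes lie far below these lines in all 3 settings, and ILC3 factors and effector cytokines lie above them most without PA 2.

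The genes whose groups lay farthest apart were of mixed function, and some of them, such as Nfkbie, Cpa3 and Il12rb2, are also members of lists. They were taken among genes with at least 5 FPKM in each library of the higher group, by the ratio of the lowest library of the higher group to the highest of the lower group. Slc6a13, a transporter of the neurotransmitter GABA, led those higher in PA milk. It was 15.3, 21.3 and 13.6 FPKM in PA milk (16.7 ± 4.04, SD, n = 3) and 0.331, 0.0401 and 0.635 in ND (0.336 ± 0.297, SD, n = 3). All 3 PA libraries were alike and no ND library reached 1 FPKM, and the log2 fold change was 3.73 (standard error 0.86) and 3.55 without PA 2. Tubb6, a beta-tubulin, was 18.8, 129 and 40.5 FPKM in PA milk and 2.18, 0.152 and 4.14 in ND, with a log2 fold change of 4.16 (standard error 0.97) and 3.43 without PA 2. Nfkbie, which encodes the NF-κB inhibitor IκBε, was 133, 92.4 and 61.2 against 23.3, 9.13 and 22.4 FPKM, and its log2 fold change of 2.36 (standard error 0.89) was 2.35 without PA 2. PA 2 lay between PA 1 and PA 3 for Nfkbie. Other genes of this group were Nol8, Gzf1, Nrgn, Ppp1r13b, Phf2, Mocs3, Cwc25 and Mettl8, with log2 fold changes of 2.32 (Nrgn) to 3.96 (Nol8, a nucleolar protein), and of 1.61 (Cwc25) to 3.21 (Nol8) without PA 2. PA 2 was the highest PA library for all 8 of them.

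Hibch, a hydrolase of valine breakdown, led the lower genes. It was 0, 0 and 0.0527 FPKM in PA milk and 24.3, 60.0 and 22.7 in ND, with a log2 fold change of -5.03 (standard error 1.17) and -5.02 without PA 2. Of the tested genes, 101 reached 1 FPKM in all 3 ND libraries and in 0 PA libraries, and 12 in all 3 PA libraries and in 0 ND libraries. Such genes, Hibch, Cpa3, Il12rb2, Tox and Slc6a13 among them, entered the test through the group in which they were high. Their difference and its size without PA 2 were therefore largely fixed by that choice. Gpr160, an orphan receptor, was 0, 0 and 0.197 against 33.2, 21.2 and 19.1 FPKM, and Zfp692, a zinc finger protein, was 0.0609, 0 and 0.68 against 19.6, 22.2 and 21.3. For both genes no PA library reached 1 FPKM and the ND libraries were close to each other. Btbd6 and Arl4d were listed at 0 in all PA libraries, at 11.7, 18.4 and 9.72 FPKM and at 22.9, 6.58 and 28.4 in ND. Pmp22, Dcaf4, Cdc37l1, Mmachc and Taf1a, together with Cpa3 and Il12rb2, completed the 12. A value of 0 in cDNA amplified from few cells does not show that the transcript was absent, and 36 of the 558 lower genes were listed at 0 in all PA libraries.

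**Figure D5:**
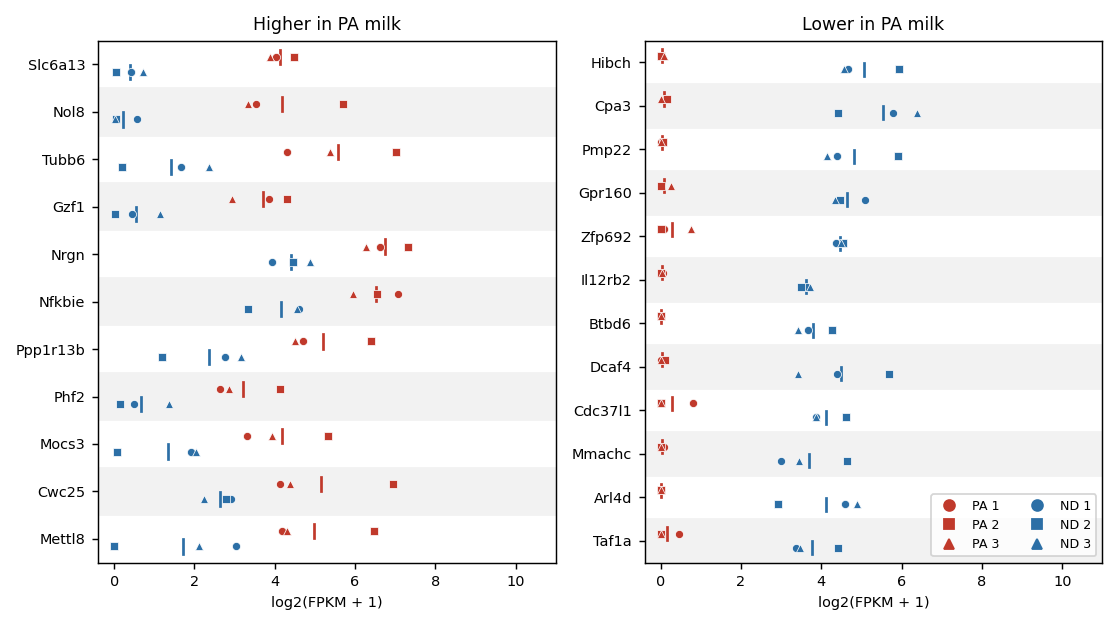
Level of 11 higher and 12 lower genes among those whose groups lay farthest apart, as log2(FPKM + 1) in each intraepithelial library, PA milk in red and ND in blue, with circles, squares and triangles for replicates 1, 2 and 3 and vertical bars for group means. On the right, the PA libraries lie at or near 0 for every gene. On the left, PA 2 is the highest library for 10 of the 11 genes.

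Mir671 was singled out after its values were seen, because its PA libraries were high and it was listed at 0 in all ND libraries. It was 257, 6979 and 732 FPKM in PA 1, PA 2 and PA 3. FPKM divides by length, so a short gene gains a high value from few fragments. The annotated precursor, on chromosome 5 of GRCm38 from 24592114 to 24592211, lies within Chpf2 (24586741 to 24594556 on the same strand), a chondroitin synthase gene, and the 2 cannot be told apart in reads of amplified cDNA. Chpf2 itself was 15.6, 33.0 and 16.7 FPKM in PA milk and 0.88, 0 and 8.77 in ND, and did not overlap (log2 fold change 3.03, standard error 1.30, and 2.70 without PA 2). The mature miRNAs that the locus can give are shown with the seed, bases 2 to 8, in capitals. Neither seed was shared with another of 1679 mature miRNAs of the RefSeq table, and mature miRNA was not measured by this method.
mmu-miR-671-5p: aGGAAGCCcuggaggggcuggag
mmu-miR-671-3p: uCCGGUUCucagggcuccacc

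Signalling and stress genes gave further members without overlap. Gem, a small GTP-binding protein induced on lymphocyte activation, was 663, 304 and 273 FPKM in PA milk and 73.9, 95.4 and 147 in ND, with a log2 fold change of 1.90 (standard error 0.61) and 2.06 without PA 2. It was the 1 gene higher without overlap among 24 immediate early and dissociation genes, and 2 were lower, beside 3.46% and 5.36% of tested genes. The median of this list was -0.21 (0.29 without PA 2). Fos was 2318, 456 and 1789 against 1949, 1700 and 1258 FPKM and overlapped. In the NF-κB list, Nfkb1 was lower in every PA library (9.49, 0.167 and 6.72 against 23.1, 23.7 and 16.1 FPKM, log2 fold change -2.25, standard error 1.11, and -1.27 without PA 2), while its inhibitor gene Nfkbie was higher. Nfkbia of this list was 1200, 110 and 429 against 437, 430 and 678 FPKM and overlapped. Of the 20 tested members, 8 were higher and 12 lower, with a median of -0.85 (0.45 without PA 2). Without overlap, 2 were higher (Nfkbie and Tnfaip2) and 1 lower (Nfkb1), beside 3.46% and 5.36% of tested genes. Mcl1, a survival protein of the BCL-2 family, was 211, 205 and 161 FPKM in PA milk and 108, 106 and 121 in ND (log2 fold change 0.77, standard error 0.57, and 0.72 without PA 2). Of the 22 tested apoptosis genes, 5 were higher and 17 lower, with a median of -0.77 (-0.28 without PA 2). Without overlap, 1 was higher (Mcl1) and 1 lower (Fadd), beside 3.46% and 5.36% of tested genes. Annexins are calcium-dependent phospholipid binding proteins. Among 9 tested annexin genes, Anxa1 and Anxa5 were higher without overlap and Anxa4 and Anxa13 lower, beside 3.46% and 5.36% of tested genes. Anxa1 was 55.6, 242 and 25.3 against 7.37, 20.4 and 5.47 FPKM (log2 fold change 2.76, standard error 1.08, and 1.88 without PA 2), and Anxa4 was 214, 60.4 and 371 against 474, 1356 and 505 (log2 fold change -2.02, standard error 0.76, and -1.29 without PA 2). S100a9, a protein of neutrophils and other myeloid cells, was 104, 513 and 132 against 43.5, 88.0 and 3.94 FPKM, with a log2 fold change of 2.84 (standard error 1.03) and 2.13 without PA 2. Of 19 myeloid genes, S100a9 was the 1 gene without overlap, beside 3.46% of tested genes, and the list had 9 genes higher and 10 lower. Itgb2, the beta chain of leukocyte integrins, was 107, 156 and 34.5 against 24.8, 0.0294 and 31.0 FPKM, with a log2 fold change of 3.16 (standard error 1.16) that was 2.71 without PA 2 and 1.11 without both replicates 2.

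Genes that handle fatty acids were examined because the milk differed in palmitic acid. Of 27 tested genes of fatty acid oxidation and PPAR targets, 21 had a negative log2 fold change, with a median of -0.87 that was -0.40 without PA 2 and -0.09 without both replicates 2, and 2 were lower without overlap, beside 5.36% of tested genes. Slc25a20, the carrier of acylcarnitines into mitochondria, was 21.0, 0 and 55.8 FPKM in PA milk and 84.5, 120 and 65.6 in ND (log2 fold change -3.04, standard error 1.20, -1.32 without PA 2). Angptl4, a PPAR target that inhibits lipoprotein lipase, was 11.5, 0.0429 and 22.1 against 27.9, 44.2 and 40.6. Cpt1a, the rate-limiting carnitine transferase, was 30.0, 83.0 and 34.8 against 35.3, 14.4 and 38.3 FPKM and overlapped. In fatty acid synthesis, desaturation and activation, 9 of 15 genes were higher, and the median was 0.05 (0.69 without PA 2). Of these genes 0 were free of overlap in either direction, beside 3.46% and 5.36% of tested genes, and without PA 2 the count was 1 higher, beside 10.9%. In cholesterol synthesis 17 of 21 genes had a negative log2 fold change (median -0.74, -0.25 without PA 2 and -0.49 without both replicates 2). Pmvk, Idi1 and Tm7sf2 were lower without overlap, beside 5.36% of tested genes. Pmvk, phosphomevalonate kinase, was 20.4, 1.53 and 20.8 against 38.3, 29.5 and 32.5 FPKM, with PA 1 and PA 3 alike. In PA 1 and PA 3, 10 of the 21 cholesterol genes lay below both ND 1 and ND 3 and 0 above, beside 15.0% and 17.5% of tested genes. With only PA 2 left out, 3 of the 21 were lower without overlap, beside 7.65%.

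Antigen presentation and housekeeping lists had medians of -0.41 to 0.45. MHC class II genes, which some ILC3s express, had 8 of 11 genes higher (median 0.45, 0.32 without PA 2, with 0 free of overlap, beside 3.46% of tested genes). Cd74, the invariant chain, was 5027, 5203 and 4248 FPKM in PA milk and 2011, 5562 and 3879 in ND. Of 20 tested genes of MHC class I presentation, 5 were higher and 15 lower, with a median of -0.41 (-0.17 without PA 2). Without overlap, 2 were higher and 0 lower, beside 3.46% and 5.36% of tested genes. Of these 2, Tapbp, which loads peptides, was 304, 443 and 185 against 148, 85.7 and 173 FPKM, and H2-Q6 was 159, 75.8 and 58.3 against 29.2, 21.2 and 22.8. H2-Q6 belongs to a family of near copies, so its reads are uncertain. Of 81 cytosolic ribosomal protein genes, 60 had a positive log2 fold change, with a median of 0.16 that became -0.02 without PA 2. Rps27 was 787, 921 and 324 against 293, 16.8 and 17.0 FPKM and did not overlap, but ribosomal protein genes have many processed copies that can take reads. Of 84 genes of the respiratory chain and ATP synthase, 64 were negative, with a median of -0.31 (-0.03 without PA 2) beside the -0.35 (0.04 without PA 2) of all tested genes, and Ndufa7, a complex I subunit, was 476, 780 and 560 against 295, 253 and 322 FPKM. It had a log2 fold change of 1.03 (standard error 0.39), 0.84 without PA 2, and did not overlap. Of 75 mitochondrial ribosomal protein genes, 35 were higher and 40 lower (median -0.07, 0.08 without PA 2), with 3 higher without overlap and 6 lower, beside 3.46% and 5.36% of tested genes. Mrps31 was the widest of these, at 24.1, 3.18 and 16.3 FPKM in PA milk and 80.8, 90.1 and 71.3 in ND (log2 fold change -2.74, standard error 0.87, and -1.96 without PA 2). The medians were 0.02 for 38 cell cycle genes (-0.18 without PA 2), -0.04 for 37 proteasome genes (-0.05), -0.11 for 24 genes of the unfolded protein response (0.06) and -0.31 for 18 glycolysis genes (-0.08).

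The genes that did not overlap in IEL were looked up in the 6 libraries of the lamina propria (LP) of the same study. The labels do not say whether IEL and LP libraries of the same number came from the same mice. In LP, too, PA 2 had the fewest detected genes, with 5203 tested genes at 1 FPKM against 7389 to 9372 in the other LP libraries. Its part in the genes lower in both layers was not tested. Of the 360 genes higher in IEL, 23 (6.39%) were also higher without overlap in PA milk in LP, where they were 6.71% of the 343 higher genes, and 15 (4.17%) were lower there. No minimum level was asked for in LP, where 3.29% of all tested genes were higher without overlap and 6.81% lower. Of the 558 genes lower in IEL, 52 (9.32%, and 7.32% of the 710 lower LP genes) were lower in LP and 14 (2.51%) higher. The test of the difference between the layers with limma gave 0 genes (0%) at an adjusted p under 0.05 and 229 at an unadjusted p under 0.05. Reg3b was among the 52, at 2.68, 3.31 and 10.5 FPKM in the LP of PA milk mice against 308, 7447 and 1704 in that of ND mice.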

How the data were processed

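RNA of sorted ILC3s was sequenced after full-length cDNA amplification (SMART-Seq, no molecular identifiers). Per the labels and methods, the authors mapped reads to mm10 with TopHat (2.1.1) and quantified genes with Cufflinks (2.2.1), and deposited FPKM values and a rounded table of scaled counts, which has the unit of a score here and served for depth (9376529 to 11710874 per IEL library) and 1 alternative. Low FPKM values were whole multiples of a step (within 0.05) in 90.5% to 98.0% of cases, which gave the reads per library; this covers counting error only.

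Log2(FPKM + 1) of the 10419 genes was fitted with limma 3.58.1 (R 4.3.3), a variance trend, all 12 libraries and 4 group means, and Benjamini-Hochberg adjustment at 0.05. A fold change on this scale understates the change of low genes. The smallest exact permutation p of 3 against 3 is 0.1. As the labels do not say that libraries came from separate mice, p-values measure the spread between libraries, which may be technical. Named genes were the 12 per direction whose groups lay farthest apart at 5 FPKM (the 5 genes named in the study's text and unnamed models left out), up to 4 non-overlapping and 2 abundant members of each of 43 lists, and cell type markers. The members and lists were chosen with earlier results of these data known. Positions are of GENCODE vM21 on GRCm38. Some genes that the rule names are not reported here. The fit was tested on simulated data that held no library with few detected genes such as PA 2. That run therefore does not show how the fit performs on these libraries. Alternatives were other scalings, filters, pseudocounts and models, a replicate block and leaving out libraries. Python 3.11.15, pandas 2.3.3, scipy 1.17.1 and matplotlib 3.10.9 were used.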

Additional observations from a re-analysis of the deposited data

Results flagged for a closer look

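Id2 drew attention because its diets moved in opposite directions in the 2 layers. In IEL its 3 PA libraries lay above the 3 ND libraries. In LP it was 190, 95.2 and 240 FPKM with PA milk against 539, 455 and 546 with ND, so that all PA libraries lay below. The difference between the layers, IEL minus LP, was 3.12 on the log2 scale (standard error 0.71, unadjusted p = 0.000512 and adjusted p = 1 from limma), which did not pass after adjustment over all tested genes.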

How the results depend on the processing

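The count of called genes was 0 under each alternative tried except the fit of only the 6 IEL libraries, which called 1 gene (Mir671, adjusted p = 0.0343, which was at 0 in all ND libraries and entered the test through its PA libraries alone), and, among fits that left out 1 library, which called 0 to 1, the fit without PA 3 (Reg3b, adjusted p = 0.0126, limma). The difference between the layers gave 0 called genes under every alternative run for it. Same-numbered PA and ND libraries of IEL did not deviate together from their group means (correlations 0.073, 0.072 and -0.029). A pairing of IEL with LP libraries of the same number was not examined. The main test of the difference between the layers took the libraries as independent. The replicate block gave 0 called genes (425 at an unadjusted p under 0.05) and 0 with only the 6 IEL libraries. Genes without overlap numbered 528 to 1133 higher and 797 to 1798 lower with 1 library left out, and 1820 and 1562 without both replicates 2. With fewer libraries to separate, more genes do so by construction. Asking for 1 FPKM in all 6 libraries left 63 lower genes, since PA 2 was under 1 FPKM for 494 of the 558. All 36 genes given with a log2 fold change kept its sign, but their choice as genes without overlap fixes this in large part. Of 43 list medians, 6 moved by more than the spread between replicates in some alternative. The share of higher genes among those without overlap was 39.2%, and 58.7% without PA 2, 53.8% without both replicates 2 and 79.2% under that filter.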
